A study of Capra hircus with 9 samples.

Results

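The genes of fatty acid synthesis and lipid storage described here, in the rumen epithelium of goats, are FASN, ACACA, ACLY, SCD, ELOVL6, FADS1, FADS2, PLIN2, FABP5 and MFSD2A. They are 10 of the 18383 genes named in the files, taken by symbol, and each was listed in all 9 libraries. RNA was sequenced from this absorptive lining of the forestomach at an age of 4 months. The 9 libraries form 3 groups of 3, named HC, MC and LC by their diets, which were different types of concentrate feed. The labels expand neither the letters nor the make-up of the feeds, and they leave unsaid whether the libraries of a diet came from separate goats, so p-values measure only the spread between these samples.

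Fatty acid synthesis starts from acetyl-CoA, which ACLY makes in the cytosol from citrate. ACACA, acetyl-CoA carboxylase alpha, turns it into malonyl-CoA in the committed step, and FASN, fatty acid synthase, builds saturated chains from both. ELOVL6 lengthens those chains, SCD, stearoyl-CoA desaturase, puts a double bond into them, and FADS1 and FADS2 add double bonds to polyunsaturated fatty acids. PLIN2, perilipin 2, coats lipid droplets, FABP5 is the epidermal fatty acid binding protein that carries fatty acids through the cytosol, and MFSD2A takes lysophospholipids that carry polyunsaturated fatty acids into cells. In ruminants acetate from fermentation, more than glucose, supplies the carbon for fatty acids, and the rumen epithelium takes up and metabolises acetate, propionate and butyrate.

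Levels are in FPKM, fragments per unit of transcript length and of sequenced fragments, a per-length scale on which genes can be compared. Between 15123 and 16696 genes had a value in a library, and between 10880 and 12009 had at least 1 FPKM. Total FPKM was lowest in LC1 (755624), and the other libraries had 903006 to 1051183. Read counts are not part of these values, so the depth of a library is unknown. The HC files held 11468 to 12038 empty lines and the MC and LC files 0, so the way the HC files were made cannot be told apart from the HC diet. Markers of stratified epithelium (7 genes, KRT5 and KRT14 among them) summed to 5443 to 8442 FPKM in every library, which fits the label. Smooth muscle lies deeper in the rumen wall than the epithelium. Its markers (6 of 6 listed) summed to 1096 to 3430 FPKM in MC and to 89.9 to 116 in HC. In LC they summed to 2221 in LC1, 1186 in LC2 and 32.4 in LC3. In whole tissue RNA, fewer cells of a type and less RNA per cell cannot be told apart.

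The 10 genes differed widely in level. FABP5 was the most abundant, above 98.4% of the tested genes in LC and 99.1% in MC, followed by PLIN2, ACLY and FASN in every diet. FADS1 was the least abundant in LC, MC and HC, with 0.136 to 0.508 FPKM over the 9 libraries. SCD, ELOVL6, ACACA and MFSD2A lay between 0.550 and 10.003 FPKM, and their order changed with diet: MFSD2A averaged 0.732 FPKM in LC, below ACACA, but 6.97 FPKM in MC, near ELOVL6.

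Of the 10 genes, 9 entered the limma test, which took genes that reached 1 FPKM in 3 libraries or more. FADS1 did not reach 1 FPKM in any library. FADS2 reached it in 3 libraries, LC1, MC2 and HC2, and MFSD2A in the 6 libraries of MC and HC. Changes are on the scale log2(FPKM + 1), which understates those of low genes, and are given ± SE, while levels are means ± SD over 3 libraries (n = 3). A gene is called higher or lower where its limma p, Benjamini-Hochberg adjusted over all 11668 tested genes, is under 0.05. The median change of all genes on the deposited scale was -0.10 for both HC contrasts and -0.0067 for MC minus LC. Every HC contrast below carries the shift of -0.10, and its source was not tested. In the limma F test over the 3 diets 7 of the 9 tested genes passed, with 45.2% of all tested genes, and FASN (adjusted p = 0.857) and FADS2 (adjusted p = 0.294) did not.

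**Figure D1:**
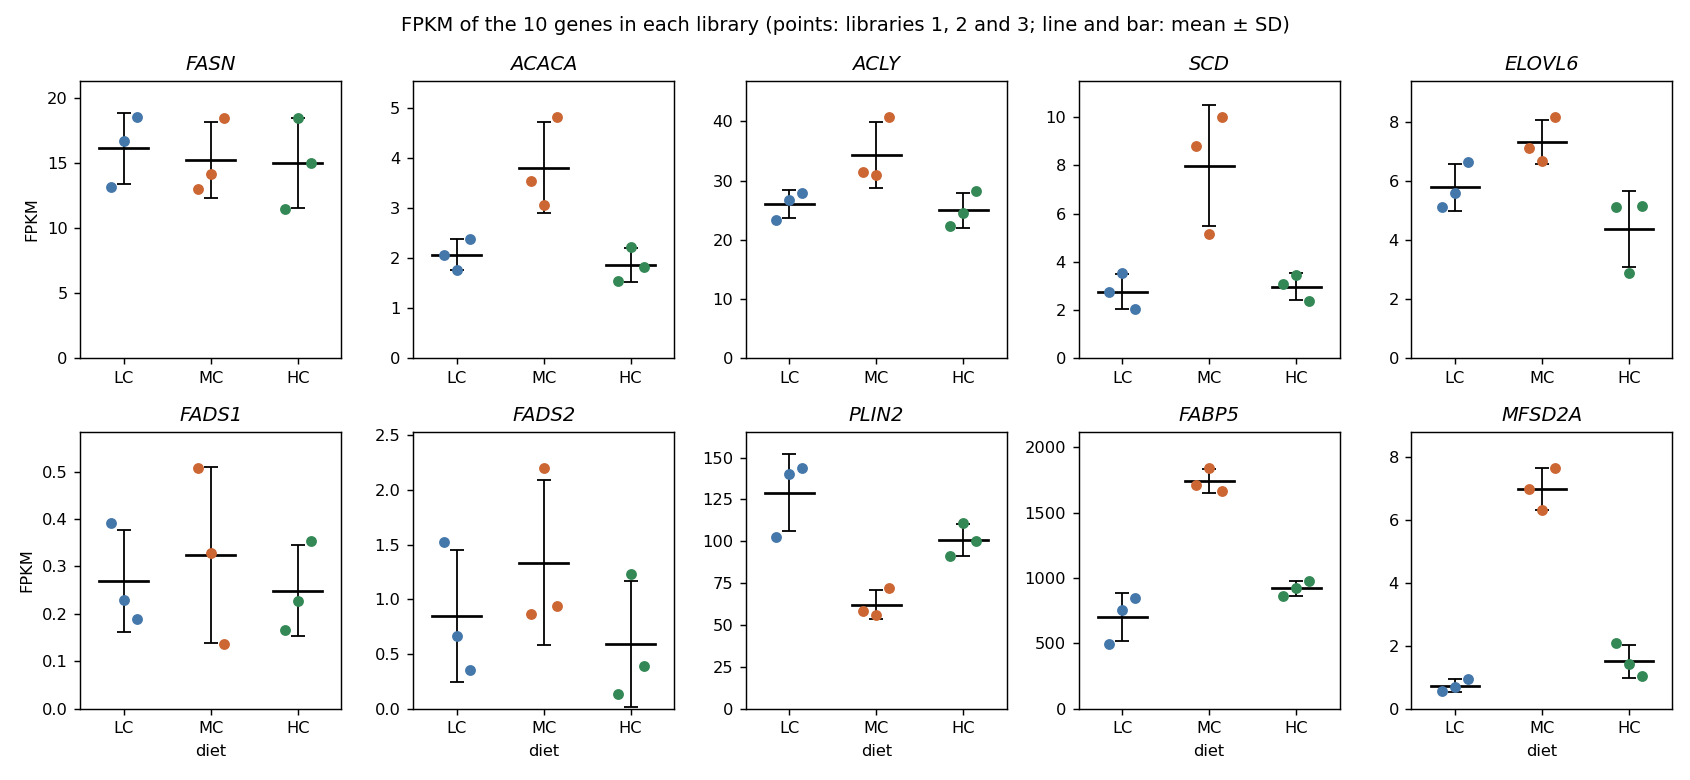
FPKM (vertical axis, from 0, scaled per gene) of each of the 10 genes in the LC, MC and HC diets (horizontal axis). Points are single libraries and the line with its bar is the mean ± SD of 3 libraries. MFSD2A, FABP5, SCD and ACACA are highest in the 3 MC libraries, PLIN2 is lowest there, and FASN overlaps among the diets.

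The MC diet was set against LC first. MFSD2A, FABP5, SCD and ACACA were higher in MC, PLIN2 was lower, and ACLY, ELOVL6, FASN and FADS2 did not pass. That is 5 of 9 tested genes (4 higher, 1 lower), where 33.4% of all tested genes passed (16.2% higher and 17.1% lower in MC). Their median change was 0.38, against -0.0067 over all genes. Libraries of the diets did not overlap for 7 of the 9, and for 47.1% of all tested genes. The genes were chosen with earlier results of these data known, so such shares, here and below, do not test them as a set.

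Among the genes of synthesis, ACACA (chromosome 19, 12872236 to 13089404 in the files) stood at 2.06, 1.76 and 2.38 FPKM in LC1, LC2 and LC3 and at 3.55, 3.06 and 4.81 FPKM in MC1, MC2 and MC3. All MC libraries lay above all LC libraries, and the change was 0.64 ± 0.16 (adjusted p = 0.0102). With LC3 alone standing for LC, an alternative chosen after seeing the data, the ACACA call was lost (adjusted p = 0.157, the highest over 18 alternatives that start at 0.00703). ACLY, which makes acetyl-CoA from citrate, stood at 23.4, 26.8 and 27.997 FPKM in LC and at 31.4, 30.9 and 40.7 FPKM in MC. These libraries did not overlap either, but the change of 0.38 ± 0.14 missed the threshold (adjusted p = 0.0612). ACLY passed after median-of-ratios scaling (adjusted p = 0.0368), quantile normalization (adjusted p = 0.0467) and with the replicate number as a block (adjusted p = 0.0166). FASN (chromosome 19, 49715749 to 49732977) averaged 16.1 ± 2.73 FPKM under LC against 15.2 ± 2.89 FPKM under MC, with overlapping libraries, and its change of -0.080 had a 95% interval from -0.49 to 0.33.

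For desaturation and elongation, SCD (chromosome 26, 19595742 to 19606882) stood at 2.73, 3.52 and 2.05 FPKM in the LC libraries and at 8.81, 5.16 and 10.003 FPKM in the MC libraries. The lowest MC library, MC2, was above the highest LC library, and the mean was 2.89 times higher in MC (change 1.23 ± 0.22, adjusted p = 0.00153). ELOVL6 averaged 5.78 ± 0.786 FPKM under LC against 7.33 ± 0.754 FPKM under MC with no overlap, a change of 0.30 ± 0.18 with an interval from -0.087 to 0.68 (adjusted p = 0.218). FADS2 varied widely within a diet, from 0.353 to 1.52 FPKM in LC and from 0.867 to 2.204 FPKM in MC. Its change of 0.34 had an interval from -0.34 to 1.03. FADS1 and FADS2 are neighbours on chromosome 29, 91903 bases apart in the files with 0 other listed genes between them, and FADS1 averaged 0.270 ± 0.108 FPKM under LC against 0.324 ± 0.186 FPKM under MC.

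MFSD2A (chromosome 3, 102336970 to 102349510) stood at 0.550, 0.700 and 0.946 FPKM in LC and at 6.96, 6.31 and 7.65 FPKM in MC. All MC libraries were several times above every LC library, and the mean was 9.53 times higher (change 2.21 ± 0.17, adjusted p = 5.38e-06). Its change depended on the pseudocount, at 3.11 with 0.1 and 1.06 with 5, the latter below the 1.34 of FABP5. FABP5 stood at 493, 757 and 846 FPKM in LC and at 1713, 1843 and 1664 FPKM in MC. Its mean was 2.49 times higher (change 1.35 ± 0.20, adjusted p = 4.25e-04), and its spread was 26.2% of the mean in LC and 5.33% in MC. The FABP5 locus in the files spans 1577 bases (chromosome 14, 55042389 to 55043965), against 6278 bases in the RefSeq table of assembly ARS1.2, so the files hold a shorter gene model. Loci were also shorter in the files for ACACA (217169 against 287918 bases), FADS2 (28782 against 37752), FADS1 (11418 against 13657), FASN, PLIN2 and MFSD2A. Those of ACLY, SCD and ELOVL6 were slightly longer.

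PLIN2 (chromosome 8, 24204569 to 24218336) moved the other way, from 103, 140 and 144 FPKM in LC to 58.7, 56.0 and 72.2 FPKM in MC. Every MC library was below every LC library, and the mean of LC was 2.07 times that of MC (change -1.03 ± 0.17, adjusted p = 7.39e-04). Macrophages also hold PLIN2-coated droplets, and their markers (6 of 7 listed, without CD163) summed to 38.7 to 50.9 FPKM in LC, 10.5 to 19.1 in MC and 26.3 to 34.9 in HC, the same order of diets as PLIN2. Their part in the PLIN2 result was not tested.

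**Figure D2:**
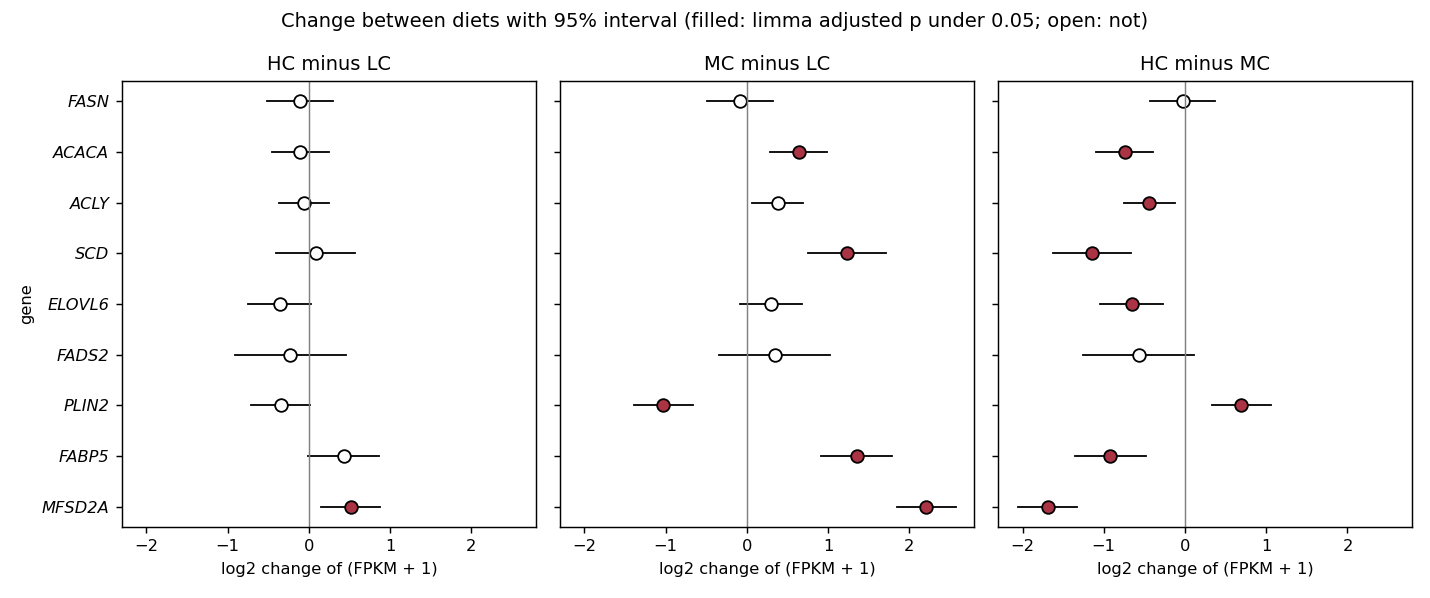
Change between diets (horizontal axis, log2 of FPKM + 1) of the 9 tested genes (vertical axis) with its 95% interval, in 1 panel per contrast. Filled points passed the limma test at an adjusted p under 0.05. Most intervals in HC minus LC cross 0, while MFSD2A, FABP5, SCD, ACACA and PLIN2 lie off 0 in both contrasts with MC.

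HC was then set against MC, a contrast that shares the MC libraries with the one before. In it 6 of the 9 tested genes were lower in HC (MFSD2A, SCD, FABP5, ACACA, ELOVL6 and ACLY), PLIN2 was higher, and FASN and FADS2 did not pass. Over all tested genes 25.0% passed, 8.00% higher and 17.0% lower in HC. The median change of the 9 genes was -0.66, against -0.10 over all genes, and libraries did not overlap for 7 of the 9 and for 46.4% of all tested genes. After median-of-ratios scaling the median change over all genes was -0.0037. The split over all genes then went from 933 higher and 1984 lower to 1513 higher and 1319 lower.

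MFSD2A stood at 2.07, 1.41 and 1.03 FPKM in HC1, HC2 and HC3, and its mean in MC was 4.64 times that in HC (change -1.69 ± 0.17, adjusted p = 9.44e-05). FABP5 stood at 865, 923 and 974 FPKM in HC, below every MC library (change -0.92 ± 0.20, adjusted p = 0.00726). SCD stood at 3.07, 3.46 and 2.36 FPKM in HC, also below every MC library (change -1.15 ± 0.22, adjusted p = 0.00414). ACACA, whose product malonyl-CoA feeds the synthase, stood at 1.54, 2.22 and 1.81 FPKM in HC (change -0.74 ± 0.16, adjusted p = 0.00724). In all 18 alternatives tried, the limma calls of MFSD2A, FABP5 and ACACA in this contrast held.

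Smaller differences were seen for the elongase and the citrate lyase. ELOVL6 stood at 5.12, 2.88 and 5.14 FPKM in HC, under the MC range of 6.69 to 8.16 FPKM (change -0.66 ± 0.18, adjusted p = 0.0199). ACLY stood at 22.3, 24.6 and 28.2 FPKM in HC (change -0.44 ± 0.14, adjusted p = 0.0443), and this call was lost in 10 of the 18 alternatives, with adjusted p from 0.0111 to 0.142. The ELOVL6 call was lost in 5, with adjusted p from 0.00673 to 0.0628. PLIN2 stood at 91.4, 111 and 99.97 FPKM in HC, above every MC library (change 0.69 ± 0.17, adjusted p = 0.0119). It was lost without MC1 (adjusted p = 0.0514) or without MC2 (adjusted p = 0.0576), and its adjusted p ran from 0.00123 to 0.314 over the alternatives. FASN stood at 11.5, 18.4 and 15.02 FPKM in HC and overlapped MC (change -0.030, interval -0.44 to 0.38).

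Between HC and LC the limma test called 1 of the 9 genes, MFSD2A, higher in HC, beside 25.2% of all tested genes (7.79% higher and 17.4% lower in HC). Their median change was -0.10, equal to that of all genes, and libraries did not overlap for 2 of the 9, MFSD2A and FABP5, and for 40.6% of all tested genes. With median-of-ratios scaling the split over all genes went from 909 higher and 2030 lower to 1494 higher and 1329 lower. MFSD2A stood 2.05 times higher in HC than in LC (change 0.52 ± 0.17, adjusted p = 0.0407), a call lost in 10 of 18 alternatives (adjusted p from 0.00954 to 0.378).

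FABP5 (change 0.43, interval -0.0045 to 0.87, adjusted p = 0.134) and PLIN2 (change -0.34, interval -0.71 to 0.021, adjusted p = 0.152) missed the threshold. FABP5 passed after median-of-ratios scaling (adjusted p = 0.0460), and PLIN2 passed after quantile normalization (adjusted p = 0.0145) and without LC1 (adjusted p = 0.0224). For the enzymes the intervals allowed changes of either sign: SCD from -0.40 to 0.56, ACACA from -0.46 to 0.25, ACLY from -0.37 to 0.25, FASN from -0.52 to 0.30 and ELOVL6 from -0.74 to 0.027. FADS2 stood at 0.135, 1.24 and 0.394 FPKM in HC, a spread of 97.8% of its mean, and FADS1 at 0.249 ± 0.0960 FPKM. At these levels FADS2 passed in no contrast, and FADS1, below 1 FPKM in every library, was not tested.

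In all, ACACA, SCD, FABP5 and MFSD2A were higher in MC than in LC and than in HC, a pattern that 8.39% of all tested genes showed. PLIN2 was lower in MC than in both, as were 5.02% of all tested genes. Since the genes were chosen with earlier results known, these shares do not test them as a set. The order of levels differed by gene. For MFSD2A the diets stood in the order MC, HC, LC with no overlap between neighbours, and for FABP5 likewise, although its step from LC to HC did not pass. For PLIN2 the order was LC, HC, MC, and LC1 (103 FPKM) fell inside the HC range. For SCD, ACACA and ACLY the MC libraries stood alone while LC and HC overlapped.

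Ratios within a library do not depend on a scaling by 1 factor per library, although quantile normalization can change them. In all, 6 were taken on the deposited scale after the values were seen, as a description with no test. ACACA was 0.105 to 0.157 of FASN in LC, 0.216 to 0.273 in MC and 0.121 to 0.134 in HC. SCD was 0.111 to 0.210 of FASN in LC, 0.365 to 0.678 in MC and 0.157 to 0.267 in HC. So the carboxylase and the desaturase stood higher against the synthase in each MC library than in any other library. The FABP5 to PLIN2 ratio was 4.80 to 5.88 in LC, 23.1 to 32.9 in MC and 8.33 to 9.75 in HC, and these 3 ranges were apart. FADS2 to FADS1, both low, gave 1.87 to 3.88 in LC, 1.71 to 6.91 in MC and 0.815 to 5.46 in HC, ranges that overlapped, with MC1 below every LC library. MFSD2A to FABP5 gave 0.000923 to 0.00112 in LC, 0.00342 to 0.00460 in MC and 0.00106 to 0.00240 in HC. The sixth, ACACA to ACACB, is given with ACACB.

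**Figure D3:**
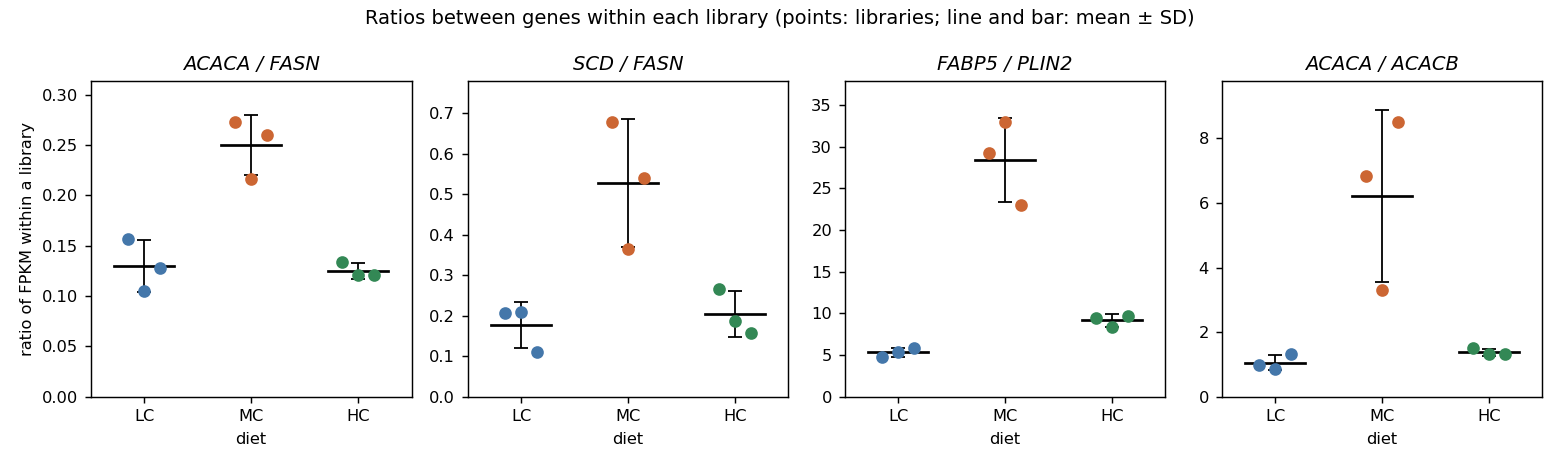
Ratio of FPKM between 2 genes within a library (vertical axis, from 0) by diet (horizontal axis), for ACACA to FASN, SCD to FASN, FABP5 to PLIN2 and ACACA to ACACB. Points are libraries and the line with its bar is the mean ± SD of 3. In these 4 panels the 3 MC libraries are above all others, which does not hold for FADS2 to FADS1 (not drawn).

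Smooth muscle RNA moved with the diets as well, since all MC libraries and 2 LC libraries held much of it and HC held little. Within LC, MFSD2A stood at 0.550 FPKM in LC1, 0.700 in LC2 and 0.946 in LC3, rising as the muscle markers fell (2221, 1186 and 32.4 FPKM). Of the other genes given above for each LC library, FABP5, PLIN2 and ACLY also rose in this order, while SCD and ACACA did not. MC3, with 1096 FPKM of muscle markers, less than LC1 and LC2, held 7.65 FPKM of MFSD2A, 1664 FPKM of FABP5 and 10.003 FPKM of SCD. With the muscle marker mean as a covariate, chosen after seeing the data, MC minus LC kept its calls of MFSD2A (change 2.34), FABP5 (1.53), SCD (1.16), ACACA (0.75) and PLIN2 (-0.89), with adjusted p from 4.14e-06 to 0.00771, and ACLY passed (adjusted p = 0.0447). In HC minus MC, where no HC library reached the MC range of the markers, MFSD2A, FABP5 and ACACA kept their calls. SCD (change -0.995, adjusted p = 0.0848), ELOVL6 (-0.89, adjusted p = 0.0535), ACLY (-0.62, adjusted p = 0.0941) and PLIN2 (0.40, adjusted p = 0.314) lost theirs. The changes of ELOVL6 and ACLY were larger than without the covariate (-0.66 and -0.44), and those of SCD and PLIN2 smaller (-1.15 and 0.69). In HC minus MC, muscle content and diet cannot be told apart. The part of smooth muscle in the results was not tested beyond these values.

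Other cell types that store fat or take up lipids were looked at by their markers. Of 7 adipocyte markers, LEP and FABP4 were not listed, ADIPOQ was listed in 5 libraries at no more than 0.142 FPKM, and PLIN1, the droplet coat of fat cells, did not exceed 0.236 FPKM. CIDEC (up to 0.469 FPKM) and LIPE (up to 0.944 FPKM) were also low, and only CIDEA was well measured, at 12.6 to 28.9 FPKM. ADIPOQ, PLIN1, CIDEC and LIPE thus stayed below 1 FPKM wherever listed, CIDEA did not, and LEP and FABP4 have no value to read. The listed markers, CIDEA included, summed to 13.5 to 16.0 FPKM in LC, 16.2 to 18.7 in MC and 17.8 to 30.0 in HC. The part of fat cells in the results was not tested. Endothelial markers, a cell type in which MFSD2A is known, summed to 13.4 to 40.1 FPKM in LC, 9.17 to 19.2 in MC and 6.32 to 11.3 in HC (5 of 6 listed), so no MC library exceeded the LC range. Their part in the MFSD2A result was not tested beyond these values.

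**Figure D4:**
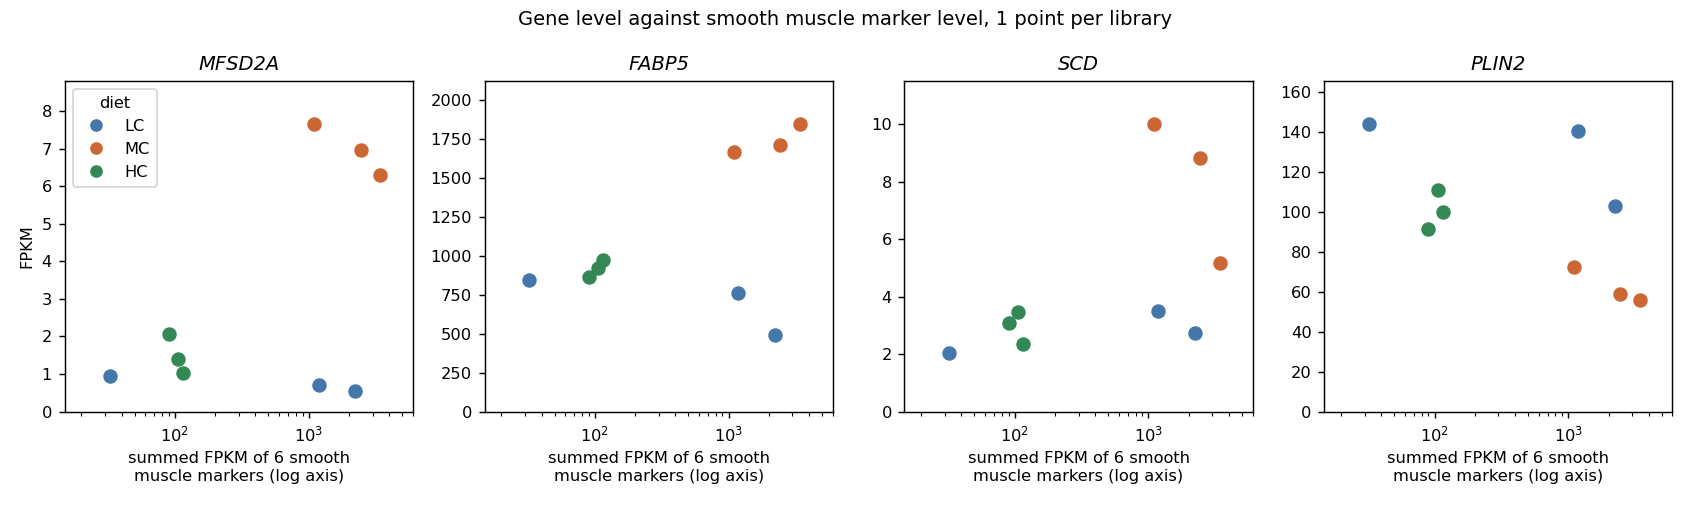
FPKM of MFSD2A, FABP5, SCD and PLIN2 (vertical axes, from 0) against the summed FPKM of 6 smooth muscle markers (horizontal log axis), 1 point per library, coloured by diet. LC1 and LC2 share the marker range of the MC libraries (1096 to 3430 FPKM) and lie below all MC libraries in MFSD2A, FABP5 and SCD. The part of smooth muscle was not tested beyond these values.

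The wider pathway was read from a list of 99 genes, of which 90 were listed and 70 tested. In MC minus LC 9 were higher and 14 lower (32.9%, beside 33.4% of all tested genes), with a median change of -0.0062. In HC minus LC 14 were higher and 11 lower (35.7%, beside 25.2%), with a median of 0.025, and in HC minus MC 11 were higher and 5 lower (22.9%, beside 25.0%), with a median of 0.067. Calls went both ways in each contrast, but the split moved with the scaling: after median-of-ratios scaling it was 20 higher and 6 lower in HC minus LC and 16 higher and 2 lower in HC minus MC, and after quantile normalization 16 and 5, and 15 and 4. In MC minus LC it was 10 higher and 16 lower with both.

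Among the 13 tested regulators, SREBF1, which encodes the transcription factor SREBP1 that drives lipogenic genes, was highest in LC at 35.7, 42.0 and 45.5 FPKM. Its mean was 31.1 ± 5.27 FPKM with MC and 24.9 ± 2.27 FPKM with HC, and only HC minus LC passed (change -0.70 ± 0.15, adjusted p = 0.00563; MC minus LC adjusted p = 0.0568). INSIG1, which holds the SREBP complex in the endoplasmic reticulum and is itself an SREBP target, was lowest in LC (18.7 ± 1.00 FPKM) and higher with MC (34.9 ± 5.197 FPKM) and HC (42.6 ± 11.5 FPKM). MID1IP1, whose protein promotes assembly of acetyl-CoA carboxylase into filaments, averaged 30.5 ± 2.60 FPKM with LC, 65.9 ± 7.21 with MC and 64.5 ± 2.81 with HC. INSIG1 and MID1IP1 were higher in MC (adjusted p = 0.00471 and 9.06e-05) and in HC (adjusted p = 0.00159 and 1.82e-04) than in LC. RXRA, the shared partner of lipid-sensing nuclear receptors, was lower in MC (35.6 ± 8.30 FPKM) than in LC (61.6 ± 8.86 FPKM, adjusted p = 0.00814) and HC (72.5 ± 14.4 FPKM, adjusted p = 0.00364). In the files SREBF1 shares its locus with TOM1L2 and MID1IP1 with LOC102181765, so reads could be split between them.

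Of the 9 genes that supply substrates, ACACB is the second acetyl-CoA carboxylase, whose malonyl-CoA restrains mitochondrial fatty acid uptake. In the contrasts with MC it went opposite to ACACA. In HC minus LC both changes were below 0 (ACACB -0.34, ACACA -0.10), and neither passed. ACACB stood at 2.11, 2.05 and 1.80 FPKM in LC, at 0.518, 0.929 and 0.567 FPKM in MC and at 1.03, 1.68 and 1.38 FPKM in HC. ACACB was lower in MC than in LC (change -0.84 ± 0.16, adjusted p = 0.00176) and than in HC (adjusted p = 0.0366, lost in 7 of 18 alternatives with adjusted p from 0.0119 to 0.135). The ACACA to ACACB ratio was 0.860 to 1.32 in LC, 3.30 to 8.50 in MC and 1.31 to 1.497 in HC. ME1 and IDH1, cytosolic sources of NADPH, were highest in HC, at 298 ± 19.9 and 319 ± 26.7 FPKM, against 159 ± 10.1 and 187 ± 32.3 FPKM in LC (adjusted p = 0.00131 and 0.00457).

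For elongation, HSD17B12 and TECR catalyse steps of the cycle that ELOVL6 starts. HSD17B12 stood at 9.63, 9.68 and 12.996 FPKM in LC, at 19.2, 17.2 and 18.7 FPKM in MC and at 13.2, 8.47 and 13.3 FPKM in HC. It was higher in MC than in LC (adjusted p = 0.00675) and than in HC (adjusted p = 0.0200), the pattern of ACACA and SCD, and its HC minus MC call was lost in 3 of 18 alternatives (adjusted p from 0.00547 to 0.0672). TECR was higher in MC (78.9 ± 8.09 FPKM) and HC (83.1 ± 12.8 FPKM) than in LC (52.5 ± 5.205 FPKM). ACSL3, which activates fatty acids for droplet growth, was lower in MC (21.5 ± 1.73 FPKM) and HC (19.3 ± 1.52 FPKM) than in LC (27.3 ± 1.62 FPKM). The MC minus LC call of ACSL3 (adjusted p = 0.0440) was lost in 9 of 18 alternatives, with adjusted p from 0.0223 to 0.160. Among 4 other desaturases, FADS6 was the only one called, lower in MC (8.25 ± 0.410 FPKM) than in LC (14.8 ± 2.41 FPKM, adjusted p = 0.00232), as were 17.1% of all tested genes.

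In glyceride synthesis 0 of 12 tested genes were higher in MC than in LC and 3 were lower, beside 16.2% and 17.1% of all tested genes, and the median change of the 12 was 0.054. GPAM, which adds the first acyl chain to glycerol phosphate, stood at 9.76, 8.97 and 10.5 FPKM in LC and at 5.03, 4.77 and 5.99 FPKM in MC (change -0.78 ± 0.12, adjusted p = 4.32e-04). DGAT2, which adds the last chain of triglyceride, stood at 3.55, 3.56 and 2.29 FPKM in LC, at 1.29, 0.463 and 0.585 FPKM in MC and at 1.08, 0.405 and 1.09 FPKM in HC. Both MC and HC were below LC for DGAT2 (adjusted p = 0.00148 and 0.00314), and GPAT3 was lower in MC than in LC (5.14 ± 0.612 against 8.80 ± 0.621 FPKM, adjusted p = 0.0154).

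Among 6 tested genes of droplet coat and assembly, 2 were lower in MC than in LC, beside 17.1% of all tested genes. They were CIDEB (2.07 ± 0.117 against 4.20 ± 0.660 FPKM, adjusted p = 0.00346) and BSCL2, which encodes seipin at sites of droplet formation (6.89 ± 0.393 against 9.26 ± 0.210 FPKM, adjusted p = 0.0221). The median change of the 6 was 0.14. CIDEB shares its locus with LTB4R and NOP9 and BSCL2 with GNG3. CIDEA was higher in HC than in LC (22.1 ± 6.15 against 14.5 ± 1.71 FPKM, adjusted p = 0.0374), a call lost in 9 of 18 alternatives (adjusted p from 0.0124 to 0.248). PLIN3, the other well measured perilipin, passed in no contrast (adjusted p from 0.102 to 0.486), with means of 55.9 FPKM under LC, 65.1 under MC and 47.8 under HC.

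Lipolysis held genes that followed neither pattern. PNPLA2, the adipose triglyceride lipase, stood at 32.0, 31.7 and 29.4 FPKM in LC, at 48.05, 42.7 and 50.8 FPKM in MC and at 52.6, 75.6 and 67.1 FPKM in HC. MC and HC were both above LC with no overlap (adjusted p = 0.00955 and 5.28e-04). PNPLA3, its relative, averaged 0.356 ± 0.153 FPKM with LC, 1.35 ± 0.486 with MC and 2.48 ± 0.240 with HC, in the same order (adjusted p = 0.00493 for MC and 2.51e-04 for HC against LC). MGLL, which splits monoglycerides, was lower in HC (1.03 ± 0.369 FPKM) than in LC (3.31 ± 0.848 FPKM, adjusted p = 0.00466).

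For uptake and binding, SLC27A2, a very long-chain acyl-CoA synthetase and transporter, went opposite to MFSD2A and FABP5 in the contrasts with MC, at 0.875 ± 0.0718 FPKM in MC against 2.48 ± 0.536 FPKM in LC (adjusted p = 7.41e-04) and 3.68 ± 0.252 FPKM in HC (adjusted p = 1.56e-04). In HC minus LC the limma test called SLC27A2 higher in HC (change 0.44, adjusted p = 0.0410), as it did MFSD2A. That SLC27A2 call was kept in 7 of 18 alternatives. FABP3, the heart-type binding protein, was highest in LC (3.20 ± 0.252 FPKM) and lower in MC (1.63 ± 0.618 FPKM, adjusted p = 0.00774) and HC (1.16 ± 0.196 FPKM, adjusted p = 0.00185). T cell markers (5 of 5 listed) were, like FABP3 and DGAT2, highest in LC, summing to 12.6 to 13.5 FPKM in LC, 3.28 to 5.002 in MC and 2.35 to 3.69 in HC, and their part in these results was not tested. Among the 70 tested pathway genes, HSD17B12 was one of those higher in MC than in both other diets (beside 8.39% of all tested genes), and 5 were lower (RXRA, ACACB, FADS6, GPAM and SLC27A2, beside 5.02%).

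With LC3 alone for LC the limma calls against LC were lost for HSD17B12 (adjusted p = 0.184), DGAT2 in MC (adjusted p = 0.0643) and in HC (adjusted p = 0.108), GPAT3 (adjusted p = 0.173), FABP3 in MC (adjusted p = 0.0511), MGLL (adjusted p = 0.140), TECR in MC (adjusted p = 0.0717) and in HC (adjusted p = 0.0679), ACSL3 in HC (adjusted p = 0.0503) and BSCL2 in MC (adjusted p = 0.173). Those of GPAM, ACACB, SLC27A2, FADS6, CIDEB, PNPLA2 and PNPLA3 in MC minus LC held in all 18 alternatives. With the muscle covariate the HC minus MC call of RXRA was lost (adjusted p = 0.132).

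**Figure D5:**
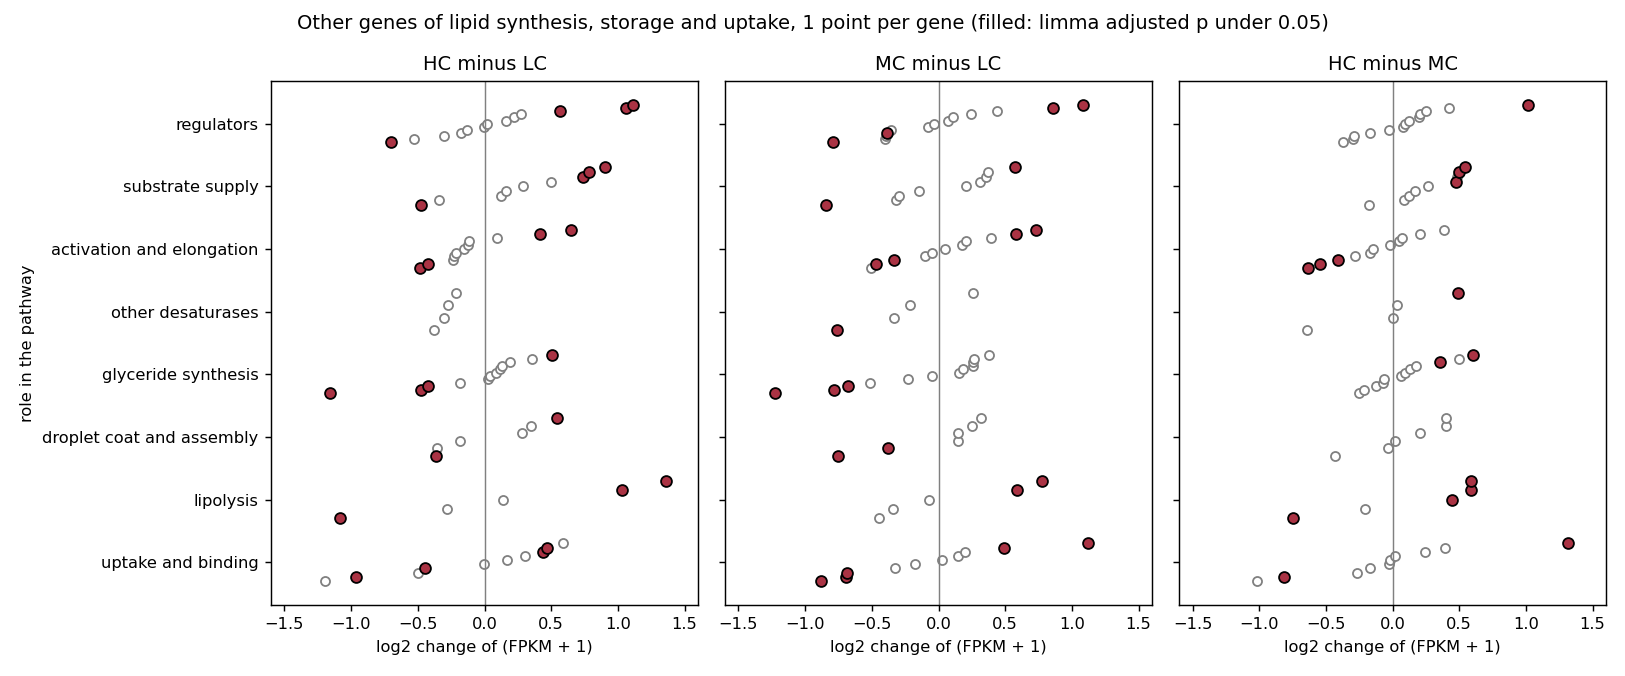
Change between diets (horizontal axis, log2 of FPKM + 1) of the 70 tested genes of the wider list, grouped by role (vertical axis), in 1 panel per contrast. Each point is a gene, and filled points passed the limma test at an adjusted p under 0.05. Points lie on both sides of 0 in most roles. In MC minus LC the medians of glyceride synthesis (0.054) and of droplet coat and assembly (0.14) are above 0, although their 3 and 2 called genes lie below 0. Of all tested genes 17.1% were called lower in that contrast.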

How the data were processed

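RNA of the rumen epithelium was measured in 9 libraries, 3 per diet. The authors deposited 1 FPKM value per gene and library, and the submitters' processing notes name Bowtie 1.2.0 with Cufflinks 2.2.1 as tools. The unit is inferred from Cufflinks and from the values, since no label names it. Genome build, strand and filters: not given in the sources used here. Chromosomes come from the RefSeq table of ARS1.2, positions from the files. Lines with names turned into dates (0 to 21 per file) were left out, and CD81 and TPT1, on more than 1 line, were summed.

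Of 11879 genes with at least 1 FPKM in 3 libraries, 211 not listed everywhere were left out. The other 11668 were compared as log2(FPKM + 1) in limma 3.58.1 (R 4.3.3), two-sided, with 1 mean for each diet, all 9 libraries in the fit and robust moderation with a trend. The fit was tested on simulated data. Named are the 10 genes and, per role of the wider list, SREBF1, INSIG1 and up to 3 genes by F test p; the genes and lists were chosen with earlier results of these data known. A result of the wider list is not reported here. PLIN3 and the markers named were chosen after their values were seen. Alternatives changed the pseudocount, filter, scaling, moderation, block and libraries. Tables and plots used Python 3.11.15, pandas 2.3.3 and matplotlib 3.10.9.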

Additional observations from a re-analysis of the deposited data

How the results depend on the processing

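All 13 calls of the 10 genes kept their direction in the 18 alternatives and 7 kept their call in each (of the 46 calls of named pathway genes, 46 and 21), while 35 values with no call changed sign. The filter, the moderation, the block and leaving out a library of the diet not compared do not alter a change. Only the other alternatives could turn its direction. Most named pathway genes were picked by their F test p in these same data. For HC minus LC the count of called genes of the 10 was 1, and it was 2 with median-of-ratios scaling, 2 with quantile normalization, 0 with a pseudocount of 5, 0 with the muscle covariate, 0 with LC3 alone for LC (its spread taken from HC and MC) and 0 to 1 without 1 library. With LC3 alone the count over all genes was 1379 in HC minus LC (main 2939) and 2322 in MC minus LC (main 3894), and over the wider pathway 9 (main 25) and 13 (main 23). With the muscle covariate HC minus MC gave 969 of all genes (main 2917), 3 of the 10 (main 7) and 4 of the pathway (main 16). Leaving out 1 library gave 1769 to 2811 genes in HC minus LC (lowest without HC3), 2838 to 4043 in MC minus LC, and in HC minus MC 1619 to 4066 of all genes, 4 to 7 of the 10 and 4 to 22 of the pathway. It gave 14 to 23 pathway genes in HC minus LC. The cause of these moves was not tested, beyond fewer libraries where libraries were left out. A replicate block gave 3751, 4613 and 3871 genes in HC minus LC, MC minus LC and HC minus MC and 1, 6 and 7 of the 10. The labels do not say what the numbers pair: deviations of same-numbered libraries correlated above 0.1 in 6 of 9 pairs, and 7 of 9 libraries correlated best with their own number. Depth is unknown, so the precision of the low values of FADS1, FADS2 and, in LC, MFSD2A cannot be given. The same holds in the wider list for PNPLA3 in LC, ACACB and SLC27A2 in MC, and DGAT2 in MC and HC. The ACACA to ACACB ratio in MC rests on such values.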
